A study of Mus musculus with 4 samples.

Results

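The transcripts of T cells and natural killer (NK) cells were followed in islet RNA from knockout mice, whose Bmpr1a gene (encoding a receptor of bone morphogenetic protein signalling) had been deleted under Pdx1 control, and from wild type mice. The list holds 41 genes of T cell and NK cell biology, chosen with earlier results of these data known. The platform annotation gave 37 of them at least 1 probe, out of 17711 genes with a probe. The remaining 4, Cd8a, Lck, Tcf7 and Il2rg, have no listed probe and were not analysed here. Each genotype was measured on 2 Illumina bead arrays, with mice of 12 weeks on a C57BL/6 background in both genotypes. Pdx1 is a transcription factor of the embryonic pancreas and of beta cells. Whether the gene was also deleted in lymphocytes was not tested. The labels do not say whether wild type mice carried a Cre transgene, so the deletion and such a transgene cannot be told apart. They also do not say whether the arrays of a genotype hold separate mice or pools, so the spread behind each p-value is that between these samples and may be technical.

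T cells recognise peptides through a receptor whose signal passes through the CD3 chains to kinases and adapters. Naive T cells circulate through lymph nodes guided by chemokine receptors, cytotoxic T cells and NK cells kill targets with perforin and granzymes, and regulatory T cells restrain other lymphocytes. Healthy islets hold few resident lymphocytes, whereas infiltration by T cells is a hallmark of autoimmune diabetes in mice. In bulk islet RNA, fewer T cells and less RNA per T cell cannot be told apart.

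A probe was called detected on an array when its deposited detection p, set against negative control beads, was below 0.05. A gene was tested when at least 1 of its probes was detected on both arrays of a genotype, and was then represented by the brightest such probe. By this rule 17 of the 37 genes were tested. All of the 17 were detected on both wild type arrays, and only 4 of them, Cd8b1, Thy1, Skap1 and Il2rb, on both knockout arrays. The other 13 passed the filter through wild type alone, so the filter itself favoured a lower value in knockout islets, and their shared direction is not support for a difference. In limma, with a threshold of 0.05 on the adjusted p, 13 of the 17 were lower and 0 higher in knockout islets, where 11.0% of all tested genes were lower and 14.5% higher. Among all genes that passed through wild type alone, 65.6% were lower. Of the 4 genes detected on every array, 0 were lower and 0 higher by their brightest probe in limma, none had an unadjusted p below 0.05, and over all genes detected on every array 9.18% were lower and 13.0% higher. The median change of the 17 genes was -1.65 on the log2 scale, and that of all tested genes was 0.06.

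A count that does not depend on the filter was made over all 37 genes by their brightest probe. Here 25 had both knockout arrays below both wild type arrays and 2, Cd7 and Lef1, had both above. Over all genes, 23.7% were below and 31.0% above without overlap. Of the 25, 12 were genes not tested, so their order rests on values near background. The other 13 were those that had passed the filter through wild type alone. In a limma fit over every probe with no filter, 14 of the 37 genes were lower and 0 higher, beside 4.36% and 5.53% of all genes. These 14 include Cd27 and Gata3, neither of which was detected on both arrays of any 1 genotype. The transcripts detected on both wild type arrays and on no knockout array numbered 12 of the 37, where 1.34% of all genes had this pattern. None of the 37 showed the opposite pattern, which 2.30% of all genes had.

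**Figure D1:**
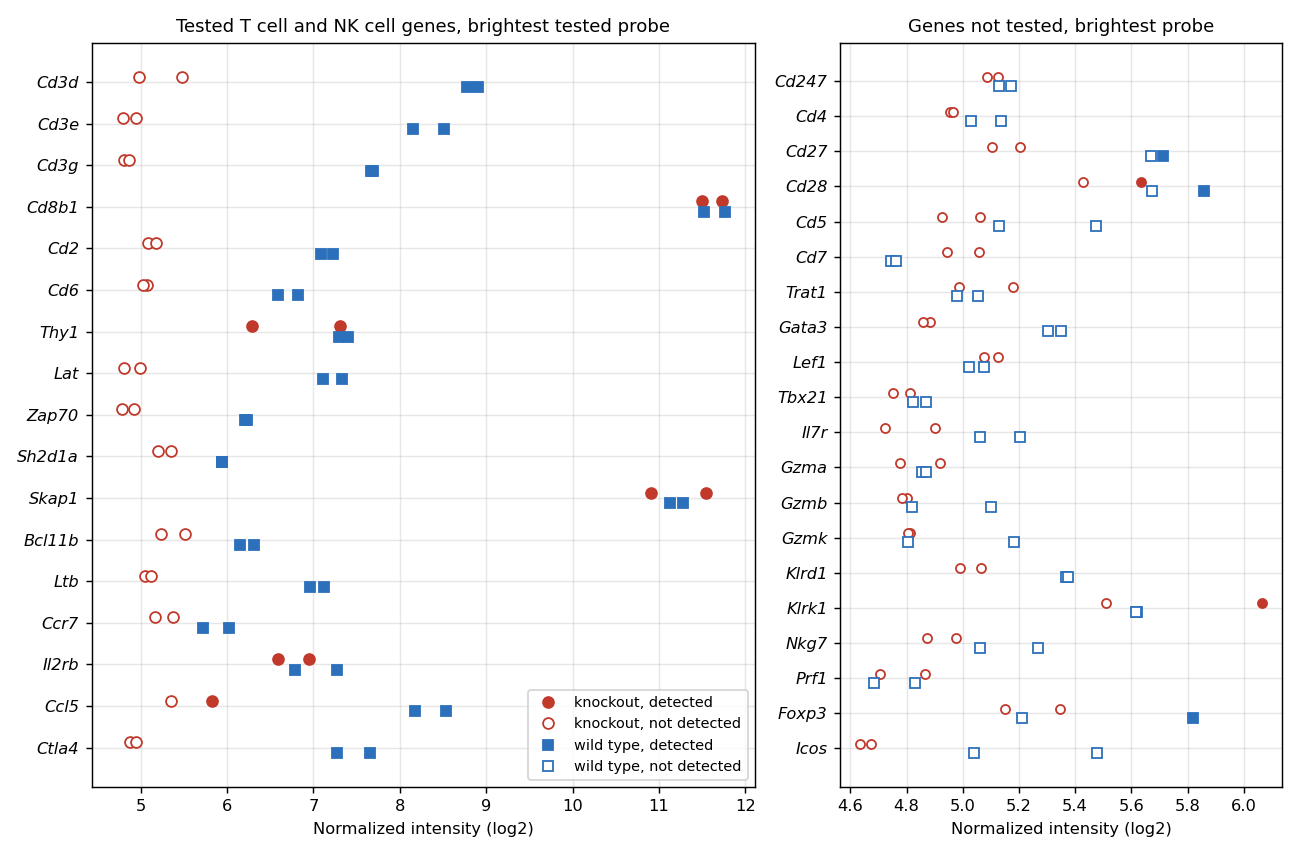
Normalized log2 intensity of each gene on every array, with knockout arrays as circles and wild type arrays as squares, filled where the probe was detected; the left panel holds the 17 tested genes and the right panel the 20 that were not tested, on its own axis. In the left panel the open circles of 12 genes lie apart from their filled squares, whereas the symbols of Cd8b1, Thy1, Skap1 and Il2rb overlap.

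The CD3 chain genes of the T cell receptor complex were lower in knockout islets. Cd3d, Cd3e and Cd3g encode the delta, epsilon and gamma chains of CD3, which carry the activation motifs of the receptor. Raw Cd3d intensities were 72.2 and 97.2 on knockout arrays 1 and 2, against 459 and 525 on wild type arrays 1 and 2. Cd3e had 59.9 and 70.5 in knockout and 323 and 416 in wild type islets. All knockout values of both genes lay below all wild type values and were not well above background. Cd3g had 60.5 and 64.5 in knockout islets, also not well above background, and 251 and 266 in wild type islets.

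For a gene not well above background on either knockout array, the fold is a bound. It sets the wild type mean against a knockout mean in which each array takes the probe's own value or that array's lowest detected value, whichever is higher. By this measure Cd3d was lower in knockout islets by at least 9.55-fold (adjusted p = 0.000152). Here and below, the adjusted p beside a bound comes from the limma change of the probe's own values and does not test the bound. The bound was 6.71-fold for Cd3e (adjusted p = 0.000128) and 4.28-fold for Cd3g (adjusted p = 0.000114). On the normalized log2 scale Cd3e was 4.87 ± 0.11 in knockout and 8.33 ± 0.26 in wild type islets (SD, n = 2 each). The 3 calls held without any 1 of the 4 arrays. Only 1 probe stood for each of the 3 genes.

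These 3 genes lie side by side on chromosome 9, at chr9:44969572-45009663 in GRCm38.p6, and Cd3g and Cd3d are transcribed away from each other from start sites 1355 bases apart. Their upstream sequences are shown because the 3 neighbouring genes moved together. They come from RefSeq (GRCm38.p6), run 5′ to 3′ on the strand of the gene and end where the annotated gene begins. Capitals mark the ETS core AGGAAG (or its reverse complement CTTCCT) and the GATA core AGATAA (or TTATCT). The Cd3d sequence covers 233 bases of the plus strand (chr9:44981536-44981768), the Cd3e sequence 198 bases of the minus strand (chr9:45009664-45009861) and the Cd3g sequence 250 bases of the minus strand (chr9:44980432-44980681).
Cd3d: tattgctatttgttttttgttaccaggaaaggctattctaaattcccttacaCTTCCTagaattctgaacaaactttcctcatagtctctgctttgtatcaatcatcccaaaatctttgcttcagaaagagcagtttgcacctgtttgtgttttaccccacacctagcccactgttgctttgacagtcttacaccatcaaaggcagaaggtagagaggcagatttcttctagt
Cd3e: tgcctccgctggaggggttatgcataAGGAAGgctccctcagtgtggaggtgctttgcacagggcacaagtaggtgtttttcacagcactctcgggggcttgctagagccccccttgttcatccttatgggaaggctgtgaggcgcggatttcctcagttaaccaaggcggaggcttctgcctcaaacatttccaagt
Cd3g: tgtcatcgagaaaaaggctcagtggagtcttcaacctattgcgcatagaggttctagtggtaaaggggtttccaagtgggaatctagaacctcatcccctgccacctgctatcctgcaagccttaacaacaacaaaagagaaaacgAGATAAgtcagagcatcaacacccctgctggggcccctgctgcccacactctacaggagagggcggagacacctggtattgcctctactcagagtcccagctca
The Cd3d and Cd3e sequences each held 1 ETS core, and the Cd3g sequence held 1 GATA core. Over 32851 RefSeq windows of 250 bases before a start site, 29.5% held the ETS core on either strand and 9.99% the GATA core. The search also covered, on both strands, the RUNX core TGTGGT (or ACCACA), which 14.0% of windows held, and the TATA box TATAAA (or TTTATA), which 12.4% held. Neither was found in the printed letters. A window was available for 8 of the 13 genes lower in knockout islets, of which 6 held the ETS core, 1 the GATA core and 0 either of the other motifs. Of all 27 listed genes with a window, lower or not, 14 held the ETS core, 1 the GATA core, 8 the RUNX core and 2 the TATA box. These matches describe letters and say nothing about binding.

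The coreceptor genes were measured less clearly. Cd8b1 encodes the beta chain of CD8, the coreceptor of cytotoxic T cells, and its probes differed from each other. The brightest Cd8b1 probe had raw intensities of 3784 and 3036 in knockout and 2693 and 3468 in wild type islets, with overlapping genotypes and a change of -0.02 ± 0.15 (SE, log2, adjusted p = 0.919). The sign of this value turned with median scaling (0.25) and without knockout 2 or wild type 2 (0.10 each), never past the test. Another Cd8b1 probe had 78.3 and 78.4 in knockout and 132 and 114 in wild type islets, not well above background on either knockout array and lower by at least 1.33-fold (adjusted p = 0.00893). That call was lost without wild type 1 (adjusted p = 0.0609). The third Cd8b1 probe was not detected on any array, and where the probes lie in the gene is not known here. Cd4, the coreceptor of helper and regulatory T cells, and Cd247, the zeta chain of the receptor, had 2 probes each and none was detected on any array. Brightest-probe raw intensities of Cd4 were 70.9 and 71.6 in knockout and 83.2 and 71.8 in wild type islets.

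Among surface receptors that adhere to or costimulate T cells, Cd2 and Cd6 were lower in knockout islets. Cd2, an adhesion receptor of lymphocytes, had 77.9 and 83.6 in knockout and 191 and 207 in wild type islets. It was not well above background on either knockout array and lower by at least 2.97-fold (adjusted p = 0.000293). Which lymphocytes gave the Cd2 signal was not tested. Cd6, a scavenger receptor family protein of T cells, had 77.4 and 75.6 in knockout and 154 and 172 in wild type islets, at least 2.17-fold lower (adjusted p = 0.000727). Neither gene's genotypes overlapped, and both calls held under every alternative tried. The other Cd6 probe was not detected on any array.

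Thy1, a surface glycoprotein of mouse T cells that neurons and fibroblasts also make, was detected on all 4 arrays. Its raw intensities were 135 and 216 in knockout and 210 and 227 in wild type islets. The normalized values overlapped, because knockout 2 lay within the wild type range and knockout 1 below it, and the change was -0.55 ± 0.31 (SE, log2, adjusted p = 0.241). Leaving out knockout 2 gave -1.05, past the test (adjusted p = 0.00745). The costimulatory receptor genes Cd27 and Cd28 and the genes Cd5 and Cd7 were not tested. Cd27 was detected on wild type 1 alone, with 79.1 and 84.7 in knockout and 111 and 106 in wild type islets. Cd28 had 102 and 95.2 in knockout and 118 and 106 in wild type islets, without overlap on the normalized scale.

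Of the kinases and adapters that carry the receptor's signal, Lat, Zap70 and Sh2d1a were lower in knockout islets, while Skap1 was not. Lat, the membrane adapter on which the signalling complex assembles, had 60.6 and 73.4 in knockout and 192 and 219 in wild type islets. Zap70, the kinase that docks on phosphorylated CD3 chains, had 58.5 and 68.6 in knockout and 134 and 132 in wild type islets. Neither was well above background on a knockout array. The bound was 3.11-fold lower for Lat (adjusted p = 0.000274) and 1.55-fold lower for Zap70 (adjusted p = 0.00109). A second probe of each was not detected on any array.

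Sh2d1a encodes SAP, an adapter of SLAM family receptors in T cells and NK cells, and had 90.2 and 84.8 in knockout and 122 and 120 in wild type islets. It was at least 1.28-fold lower (adjusted p = 0.0139), a call lost without wild type 1 or 2 (adjusted p = 0.0879 and 0.0940). Skap1, an adapter that links the receptor to integrin adhesion in T cells, was detected on every array by both of its probes. Its brightest probe had 2182 and 3106 in knockout and 2072 and 2503 in wild type islets, with overlapping normalized values and a change of 0.02 ± 0.22 (SE, log2, adjusted p = 0.963). The sign turned with cyclic loess (-0.017), without knockout 2 (-0.30) and without wild type 1 (-0.06), never past the test. The other Skap1 probe had 626 and 607 in knockout and 370 and 420 in wild type islets, and rose by 0.57 log2 units with an SE of 0.13 (adjusted p = 0.0225). That call was lost without knockout 2, wild type 1 or wild type 2 (adjusted p = 0.0507 to 0.144). Trat1, which encodes a receptor-interacting adapter, had no detected probe on any array.

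**Figure D2:**
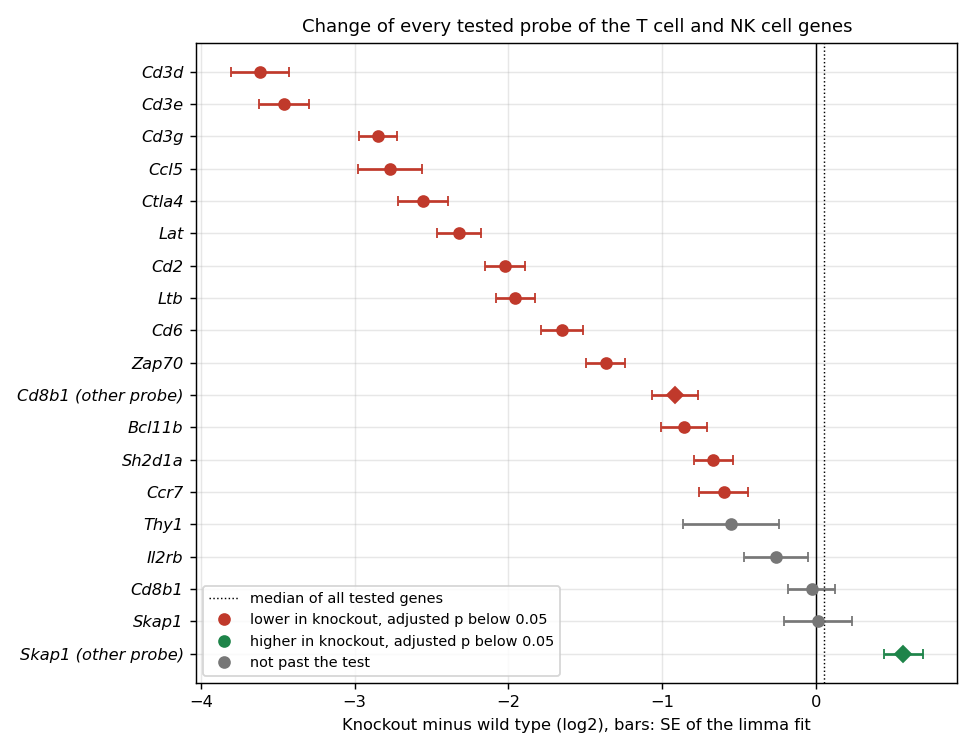
Knockout minus wild type change on the log2 scale for all 19 tested probes, with bars for the standard error of the limma fit and diamonds for probes other than a gene's brightest; the dotted line is the median of all tested genes. The 14 probes lower in knockout islets run from Cd3d at -3.62 to Ccr7 at -0.60, and 1 Skap1 probe, at 0.57, lies on the other side of 0. Of those 14, all but the Ccl5 probe were not well above background on either knockout array, where the plotted value depends on the offset and the fold is a bound.

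The transcription factors of the T cell lineage were mostly not measurable. Bcl11b, which commits progenitors to the T cell lineage, was detected by 1 of its 4 probes, with 97.1 and 86.0 in knockout and 138 and 129 in wild type islets. It was lower by at least 1.56-fold (adjusted p = 0.0108), a call lost without wild type 1 or 2 (adjusted p = 0.0792 and 0.0548). Gata3, which directs helper T cells of type 2, was not detected on any array, with 66.3 and 64.2 in knockout and 94.6 and 87.9 in wild type islets. Its values did not overlap. Lef1, a partner of beta-catenin that is high in naive T cells, and Tbx21, which directs type 1 helper and NK cell programmes, had no detected probe on any array.

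Of the naive T cell genes and cytokine receptors, Ltb and Ccr7 were lower in knockout islets. Ltb encodes lymphotoxin beta, which organises lymphoid tissue, and had 76.4 and 80.2 in knockout and 193 and 183 in wild type islets. It was not well above background on either knockout array and lower by at least 2.74-fold (adjusted p = 0.000328). Whether the Ltb signal came from T cells was not tested. Ccr7, the receptor that guides naive T cells and dendritic cells into lymph nodes, had 81.7 and 92.9 in knockout and 125 and 108 in wild type islets. It was at least 1.22-fold lower (adjusted p = 0.0393), and this call was lost without knockout 1, wild type 1 or wild type 2 (adjusted p = 0.0823 to 0.209), with an offset of 50 (adjusted p = 0.0686) and with no filter (adjusted p = 0.0936).

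Il2rb, a shared chain of the receptors for interleukin 2 and interleukin 15, was detected on all 4 arrays. Its raw intensities were 153 and 181 in knockout and 207 and 170 in wild type islets, overlapping, with a change of -0.26 ± 0.21 (SE, log2, adjusted p = 0.401). Il7r, the interleukin 7 receptor of naive and memory T cells, had 4 probes, none detected on any array.

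The genes of cytotoxic cells were near background in both genotypes. Gzma, Gzmb and Gzmk encode granzymes, Prf1 encodes perforin and Nkg7 a granule membrane protein, and none of their probes was detected on any array. Raw intensities of Gzmb were 60.3 and 58.3 in knockout and 81.2 and 57.3 in wild type islets, and those of Prf1 were 51.5 and 64.9 in knockout and 49.1 and 57.9 in wild type islets. Klrd1, which encodes the NK receptor CD94, was likewise not detected, with 73.0 and 77.4 in knockout and 95.4 and 91.8 in wild type islets. Klrk1, which encodes the activating receptor NKG2D, was detected on knockout 2 alone, with 96.9 and 123 in knockout and 107 and 103 in wild type islets. A difference in these genes was therefore not measurable at this signal over background.

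The exception in that group was Ccl5, a chemokine made by activated and memory T cells and NK cells and also by other cells. It had 89.97 and 112 in knockout and 399 and 343 in wild type islets, and was detected on knockout 2 but not on knockout 1. Ccl5 fell by 2.77 log2 units with an SE of 0.21 (adjusted p = 0.000532), with no overlap, and the call held under every alternative tried. The size depended on the setting, with a change of -2.14 at an offset of 50, -1.92 with no background correction and -1.79 in the authors' deposited log2 values.

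Of the regulatory genes, Ctla4 was lower in knockout islets. Ctla4 encodes an inhibitory receptor that regulatory T cells carry at all times and other T cells after activation. It had 66.1 and 70.5 in knockout and 208 and 260.0 in wild type islets, and was at least 3.69-fold lower (adjusted p = 0.000293). The call held under every alternative tried. Foxp3, the defining transcription factor of regulatory T cells, was detected on wild type 1 alone, with 89.8 and 82.0 in knockout and 116 and 83.0 in wild type islets, which overlapped on the normalized scale. Icos, a costimulatory receptor of activated, follicular and regulatory T cells, was not detected on any array, with 48.2 and 43.9 in knockout and 77.5 and 96.7 in wild type islets and no overlap.

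**Figure D3:**
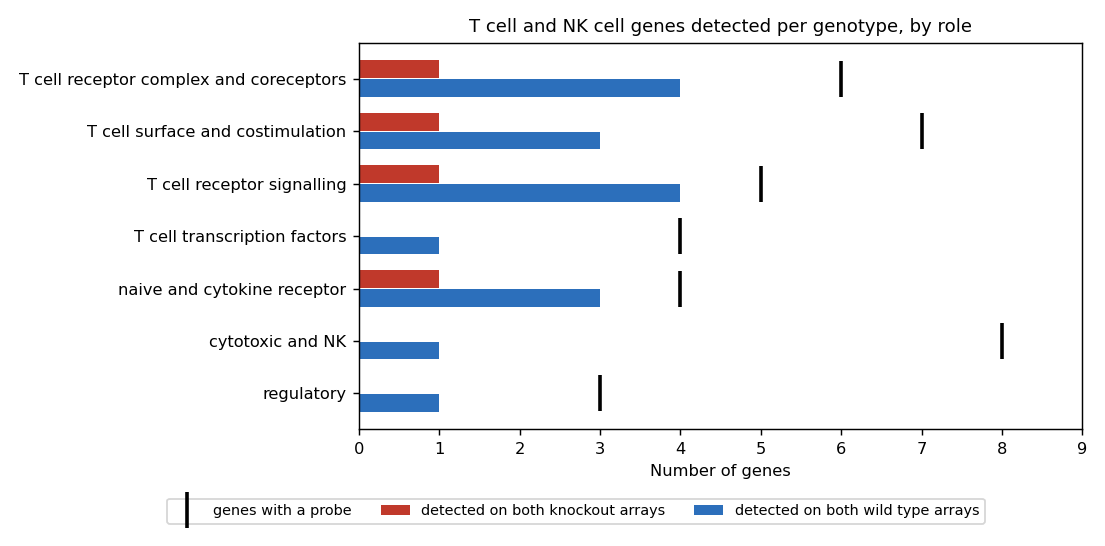
Number of genes detected on both knockout arrays (upper bar) and on both wild type arrays (lower bar) for each role, with a tick at the number of genes that had a probe. Of the cytotoxic and NK genes, 1 of 8 was detected on both wild type arrays and 0 on both knockout arrays, while 4 of the 6 receptor complex genes were detected on both wild type arrays.

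Further lists of related genes were counted in the same way. Of all tested genes, 11.0% were lower and 14.5% higher in knockout islets, the shares to set beside each count of these lists. Of 24 further genes of T cell receptor signalling with a probe, 16 were tested, 9 were lower and 2 higher in knockout islets (median change -0.53 on the log2 scale). These counts were 5 lower and 1 higher without wild type 2, 6 and 1 without wild type 1, and 9 and 1 without knockout 2. With median scaling, 6 were lower and 2 higher (median change -0.35). In the main fit the lower genes included the lymphocyte activation marker gene Cd69, at least 8.67-fold lower. The pan-leukocyte phosphatase gene Ptprc fell by 3.29 ± 0.18 (SE, log2). Lcp2, which encodes the adapter SLP-76, fell by 2.57 ± 0.15 and the phosphatase gene Ptpn22 was at least 3.53-fold lower. These 4 calls held under every alternative tried, although in the authors' deposited values the change was -2.31 for Ptprc and -1.63 for Lcp2. The higher genes were Rasgrp1, an activator of Ras in lymphocytes, which rose by 1.83 ± 0.14, and the Ikaros family gene Ikzf3. Rasgrp1 had raw intensities of 1494 and 1638 in knockout and 413 and 450 in wild type islets. Cd3d, Cd3e and Cd3g were not detected on either knockout array, and which cells gave the Rasgrp1 signal was not tested. Ikzf3 rose by 0.71 ± 0.17. Ikzf3 lost its call without knockout 2, wild type 1 or wild type 2 (adjusted p = 0.0662 to 0.158) and with no filter (adjusted p = 0.0826).

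Of 19 further NK and cytotoxic genes with a probe, 5 were tested, 2 were lower and 0 higher. Xcl1, a chemokine of activated NK and CD8 T cells, was at least 1.84-fold lower (adjusted p = 0.000607). Hcst, the signalling partner of NKG2D, fell by 1.15 ± 0.22 (SE, log2), a call that leaving out wild type 1 or 2 (adjusted p = 0.0770 and 0.0849) or using no filter (adjusted p = 0.0648) ended. Ncr1, a defining NK receptor gene, had no detected probe on any array, whereas Klrb1c, which encodes NK1.1, was detected on all 4 arrays with a change of -0.24 that did not pass (adjusted p = 0.325). Of 13 further regulatory and checkpoint genes, 5 were tested, with Tnfrsf4 and Lag3 lower and Ikzf4 and Tnfrsf9 higher. Tnfrsf4, a costimulatory receptor gene, was at least 1.54-fold lower and the inhibitory receptor gene Lag3 at least 1.62-fold, while Ikzf4, an Ikaros family gene, rose by 1.38 ± 0.17. Tnfrsf9 rose by 0.70 ± 0.18, a call lost without knockout 2, wild type 1 or wild type 2 (adjusted p = 0.0562 to 0.178) and with no filter (adjusted p = 0.0949). Of 14 lymphocyte homing genes, 7 were tested, 3 were lower and 0 higher, namely the chemokine receptor gene Cxcr4, which fell by 2.31 ± 0.20, the hyaluronan receptor gene Cd44, which fell by 1.46 ± 0.16, and the gut homing integrin gene Itgb7, at least 1.21-fold lower. Of the other tested Cd44 probes, 1 was lower by a change of -1.54 and 1, at 0.01, did not pass (adjusted p = 0.954). Itgb7 lost its call without knockout 1, wild type 1 or wild type 2 (adjusted p = 0.0511 to 0.117).

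Markers of other cell types moved on the same arrays. B cell markers were lower in 10 of 10 tested genes (12 with a probe), and in 9 without wild type 1 or wild type 2. Of the 10, 8 passed the filter through wild type alone, which favours a lower value. Mzb1, a chaperone gene of antibody-secreting cells, had raw intensities of 74.0 and 203 in knockout and 5127 and 3820 in wild type islets and was detected on knockout 2 but not on knockout 1. Its change was -6.07 (SE 0.65, adjusted p = 0.00183), or -4.96 without knockout 1 and -7.14 without knockout 2. Cd79b, which encodes a signalling chain of the B cell receptor, was also detected on knockout 2 alone, with a change of -4.72, or -3.65 in the authors' deposited values. Neither Pou2af1, a B cell coactivator gene, nor Tnfrsf13c, which encodes the BAFF receptor, was well above background on a knockout array, and the bounds were 22.7-fold and 9.87-fold lower. The smallest change of the 10 was that of Ms4a1, at -0.58 ± 0.12 (SE, log2, adjusted p = 0.0210). Among those not tested, the brightest probe of Pax5 was detected on no array and that of Cd22 on wild type 2 alone. The B cell markers had summed background-corrected intensities of 260.2 and 451 in knockout and 10136 and 9091 in wild type islets. Mzb1 was the largest part of the wild type sums. For the 37 T cell and NK cell genes this sum was 5996 and 6706 in knockout and 7881 and 8752 in wild type islets. Most of it came from Cd8b1 and Skap1, and which cells gave those signals was not tested. Among markers of lymph node stroma, high endothelium and follicular cells, 2 of 3 tested genes were lower. Fcer2a was at least 3.41-fold lower and Lyve1 changed by -1.91 ± 0.14 (SE, log2). Whether the Fcer2a and Lyve1 signals came from lymph node cells was not tested. Cxcl13, the other tested gene, was detected on every array, with 233 and 647 in knockout and 564 and 778 in wild type islets. Its genotypes overlapped, and its change of -1.05 did not pass (adjusted p = 0.191). With the replicate number as a block, all 3 tested genes of this list were lower. The summed intensity of the 8 such markers with a probe was 529 and 878 in knockout and 1814 and 2063 in wild type islets. Madcam1 and Cr2 had no detected probe, and Glycam1, Ccl21a and Ccl21b were each detected on 1 wild type array. Glycam1, a gene of lymph node vessels, had 68.7 and 73.2 in knockout and 79.9 and 174 in wild type islets.

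Macrophage and dendritic cell markers were lower in 2 of 7 tested genes, Lyz1 and Lyz2, and higher in 1, Adgre1. Their sum was 2049 and 2312 in knockout and 3263 and 3797 in wild type islets, and the Adgre1 call was lost without wild type 1 or 2 (adjusted p = 0.0550 and 0.0593). Acinar genes were lower in 2 of 8, Cpa1 and Prss2, calls that were both lost without knockout 1 or wild type 2 (adjusted p = 0.105 to 0.226) and with median scaling (adjusted p = 0.0764 and 0.164). With no filter both calls were lost as well (adjusted p = 0.127 for Cpa1 and 0.150 for Prss2), and with cyclic loess that of Prss2 (adjusted p = 0.0549). Without wild type 1, 4 acinar genes were lower. With no background correction, an offset of 50 or the authors' deposited values, 3 acinar genes were lower. With a variance trend or a replicate block, 5 were lower. The median change of the 8 tested acinar genes was -0.60. Of 10 acinar genes with a probe, 8 lay lower without overlap and 0 higher, beside 23.7% and 31.0% of all genes. Acinar sums were 61030 and 65672 in knockout and 72643 and 84445 in wild type islets. The part of these cell types in the T cell values was not tested. The islet label was borne out by the hormone genes Ins2, Gcg, Sst and Ppy, all detected on every array. Of 11 endocrine genes, 0 were lower and 2, Pcsk1 and Slc2a2, higher, beside 11.0% and 14.5% of all tested genes. With median scaling 4 endocrine genes were higher, and with cyclic loess or no filter 1. Without overlap, 6 of the 11 lay higher and 0 lower, beside 31.0% and 23.7% of all genes. Leaving out any 1 array ended the Slc2a2 call (adjusted p = 0.0501 to 0.200), as did cyclic loess (adjusted p = 0.0519) and no filter (adjusted p = 0.0681), and its other probe, at 0.23, did not pass (adjusted p = 0.522).

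**Figure D4:**
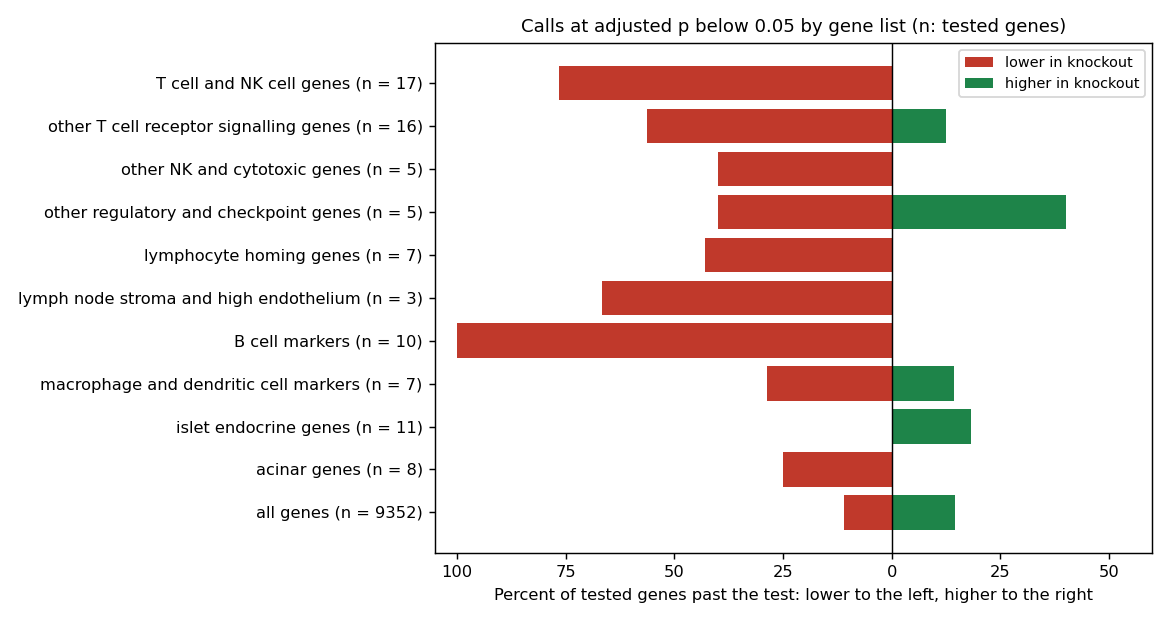
Percent of the tested genes of each list that were lower (left of 0) or higher (right of 0) in knockout islets past the test, with the number tested beside each name. The bars show 13 of 17 T cell and NK cell genes and 10 of 10 B cell markers lower, of which 13 and 8 passed the filter through wild type alone, where 65.6% of all such genes were lower; the bar for all genes shows 11.0% lower and 14.5% higher.

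Across the series, 14785 to 16171 of 46632 probes were detected per array, raw medians lay between 76.8 and 81.5, and the probes of the T cell and NK cell genes rested on 16 to 74 beads each. Precision is limited by there being 2 arrays per genotype. In limma, 2203 of the 15639 tested probes had higher values in knockout islets (14.1%) and 1785 had lower ones (11.4%). Median scaling turned these counts into 3517 and 1391, with a median change of 0.21 in place of 0.05. The Bmpr1a probe above background had 887 and 687 in knockout and 793 and 851 in wild type islets (change -0.28 ± 0.14, SE, log2, adjusted p = 0.204). Where it lies relative to the deleted part is not known here, so it does not check the labels.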

How the data were processed

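RNA of isolated islets was measured on 4 Illumina bead arrays, 2 knockout and 2 wild type, grouped by the labels. Per the file headers, the deposited scanner table gives for each probe and array a linear intensity averaged over beads, its standard error, the count of beads and a detection p-value against negative controls. The authors' second deposited table holds log2 values, uncentred, in which each array keeps the order of its raw intensities; how the arrays were brought to one distribution is not stated in the labels or headers.

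Background was corrected by normexp through the detection p-values (limma 3.58.1, R 4.3.3, offset 16), followed by log2 and quantile normalization. Of 46632 probes, 15639 were tested, those with a detection p below 0.05 on both arrays of a genotype. Knockout was compared with wild type by lmFit and eBayes, adjusting p over all tested probes by Benjamini-Hochberg, with 0.05 as the threshold. Changes are knockout minus wild type, and the offset shrinks those of dim probes. Probe symbols came from the platform annotation, which gave 1 symbol to 29965 probes, several to 10 and none to 16657. All 41 symbols were found in the RefSeq table of GRCm38.p6.

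The members and lists were chosen with earlier results of these data known, so lists are described by counts and medians. Every member is named; of each other list, up to 4 genes with the largest changes past the threshold are named, or the 2 largest where fewer than 2 passed. Rasgrp1, Ikzf3, Ncr1, Klrb1c, Cxcl13, Ms4a1, Pax5, Cd22 and the undetected or singly detected lymph node markers were named after their values were seen. Summed intensities add each gene's brightest probe after removing the offset. The replicates were compared before averaging: 35.9% of tested probes in the knockout pair and 26.8% in the wild type pair differed beyond 1.96 bead standard errors. The fit was tested on simulated data. Alternatives changed the background correction, offset, normalization, filter, variance trend, replicate block and each array in turn.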

Additional observations from a re-analysis of the deposited data

How the results depend on the processing

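Of the 19 tested probes of T cell and NK cell genes, 11 kept their direction and their side of the threshold under each of the 13 alternatives in which they were tested, namely those of Cd3d, Cd3e, Cd3g, Cd2, Cd6, Lat, Zap70, Ltb, Ccl5, Ctla4 and Il2rb, the last not past the test in any. The number of these genes lower in knockout islets was 13, and 9 to 14 under the alternatives, with 9 of 13 tested at a detection p below 0.01, 10 without wild type 1 or wild type 2 and 14 without knockout 2. None was higher by its brightest probe, whereas counting every tested probe gave 14 lower and 1 higher, the other Skap1 probe. The brightest Cd8b1 probe reversed to 0.25 with median scaling and to 0.10 without knockout 2 or wild type 2, and the brightest Skap1 probe to -0.017 with cyclic loess, -0.30 without knockout 2 and -0.06 without wild type 1. Leaving out each array gave -0.15 to 0.10 for Cd8b1 and -0.30 to 0.33 for Skap1. The cause was not tested. Over all probes, 2203 higher and 1785 lower became 3517 and 1391 with median scaling, and leaving out 1 array gave 655 to 2043 higher and 763 to 1802 lower. The lowest counts came without wild type 1 (662 and 905) or wild type 2 (655 and 763), where 1 array stands for a genotype and is assumed to vary like the other genotype. With the replicate number as a block, 13 genes were lower and 0 higher, and 2141 probes were higher and 1776 lower. Deviations of same-numbered arrays correlated at 0.02, and the samples share only a number. A slide block was not run, since the headers name no slide. Genes near background, among them the granzyme genes, Prf1, Cd4 and Foxp3, could not be compared at this signal over background.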
